A study of Mus musculus with 14 samples.

Results

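Chemokines are small secreted proteins that guide leukocytes, and 63 of the 38553 genes measured in mouse adipocytes encode a chemokine or a chemokine receptor by their symbols. They are the symbols that begin with Ccl, Cxcl, Ccr or Cxcr and a number, together with Cx3cl1, Cx3cr1, Xcl1, Xcr1 and the 4 atypical receptor genes Ackr1 to Ackr4. Of these genes 40 were ligand genes (pseudogene symbols of the ligands included), 19 were genes of signalling receptors and 4 were the atypical receptors. In the 12 libraries of white adipocytes 45 of the 63 reached the level needed for a test, which was 0.5 FPKM in at least 3 libraries. FPKM is a fragment count scaled to transcript length and library size, so levels of different genes can be set side by side. These 45 were 28 ligands, 13 receptors and the 4 atypical receptors.

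Adipocytes came from male mice on the C57BL/6 background that ate regular chow (called the normal diet or chow here) or a high-fat diet for 16 weeks from weaning at 3 weeks of age. Cells were freed with collagenase for 20 min from the epididymal pad (visceral white fat) and the inguinal pad (subcutaneous white fat), and for 40 min from the interscapular brown pad, and the floating layer was sequenced as poly(A) RNA. Each of the 4 white groups (depot by diet) had 3 libraries, numbered 0, 1 and 2, the brown pad had 1 library for each diet, and tissue of 3 to 5 mice was pooled for a library. Values of a group are given in the order of libraries 0, 1 and 2, and where groups of a depot are set side by side unnamed, the high-fat group comes first. The series' design text calls the white libraries biological triplicates, so p-values measure the spread between pools of mice, not between single animals. The labels name no transgene or deletion in any group.

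All chemokines share a fold held by conserved cysteines, and their names come from the spacing of those cysteines: CC, CXC, CX3C and XC. They bind receptors of the G protein-coupled family, which steer leukocytes along a gradient, while the atypical receptors bind chemokines without G protein signalling and take up or carry them. In obese fat, Ccl2 and its receptor Ccr2 are known for monocyte recruitment, Cxcl1 and Cxcl2 call neutrophils through Cxcr2, Cxcl12 holds cells through Cxcr4, and Cxcl13, Ccl19 and Ccl21 organise lymphoid tissue through Cxcr5 and Ccr7.

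Between 15399 and 18029 genes lay above 0 per library, and read depth was unknown. The adipocyte genes Adipoq and Plin1 were at 919 FPKM and 297 FPKM or more in each white library, and Ucp1, which uncouples brown fat mitochondria, was at 503 and 121 FPKM in the brown libraries and at most 36.1 in the white ones. The floating layer also held RNA of other cells. A list of 15 macrophage markers summed to 1337 to 2372 FPKM in epididymal high-fat libraries, 508 to 1015 in epididymal normal-diet ones, 279 to 463 in inguinal high-fat ones and 217 to 597 in inguinal normal-diet ones. The inguinal normal-diet libraries 0, 1 and 2 held 644, 68.7 and 642 FPKM of 10 B cell markers and 213, 38.0 and 693 FPKM of 12 T and NK cell markers, while the other 9 white libraries held at most 14.6 and 13.2. Sums of 12 endothelial markers were 59.7 to 115 FPKM in epididymal high-fat and 633 to 695 FPKM in epididymal normal-diet libraries, and 347 to 447 and 441 to 822 FPKM in the inguinal high-fat and normal-diet ones. In such bulk samples fewer cells of a type and less RNA per cell cannot be told apart.

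The ligands that rose most on the high-fat diet in each white depot, Cxcl1 and Cxcl2, and the ligand Cxcl10 have matches to the kappa-B decamer, the consensus bound by the NF-kappa-B factors, just before their start sites. The stretches that hold these matches are printed as examples from the 11 members with a match, because the expression results below turn on these genes. They are from RefSeq on GRCm38.p6, 5′ to 3′ on the strand of the gene. Capitals mark kappa-B matches, and in Cxcl10 the first capitals mark a tandem GAAA match, the letters GAAA repeated after a gap of any 2 bases, which is a core of the sites bound by interferon regulatory factors.
Cxcl1, chr5:90891125-90891224, plus strand: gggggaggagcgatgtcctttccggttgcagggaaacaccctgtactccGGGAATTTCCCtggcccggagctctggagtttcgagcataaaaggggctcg
Cxcl2, chr5:90903779-90903878, plus strand: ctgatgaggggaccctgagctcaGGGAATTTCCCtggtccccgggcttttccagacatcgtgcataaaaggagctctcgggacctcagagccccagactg
Cxcl10, chr5:92348980-92349109, minus strand: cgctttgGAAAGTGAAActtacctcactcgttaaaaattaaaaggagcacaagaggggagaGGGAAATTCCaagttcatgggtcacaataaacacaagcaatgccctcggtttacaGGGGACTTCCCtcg

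The kappa-B run began 71 bases before the start of Cxcl1 and 97 bases before that of Cxcl2, and Cxcl3 had the same match 73 bases before its start. The longest run shared by the Cxcl1 and Cxcl2 stretches of 250 bases was 14 bases long, and each shared 11 bases, GGGAATTTCCC, with Cxcl3. Each of these runs matched on both strands, so the matches on the strands overlap. The kappa-B decamer was found in 11 of the 53 stretches of 250 bases before a start of a member, which belong to 46 members, and in 7.25% of all 32851 such stretches. Besides Cxcl1, Cxcl2, Cxcl3 and Cxcl10, it was found for Ccl1, Ccl9, Ccl20, Ccr1, Ccr3, Ccr6 and Ackr2. Of these, Ccl9 and Ccr1 rose in the epididymal depot, and Ccr6 and Ackr2 fell in the inguinal one. No match was found for Ccl2, Ccl3, Ccl4, Ccl7 or Ccl19, which rose in the epididymal depot, though not every member had a stretch. The tandem GAAA motif was found for 3 members, Ccl19, Cxcl10 and Cxcl14, and in 2.98% of all such stretches, on either strand. A match describes letters and does not show that a factor is bound. Cxcl3 shared the match and was low: it did not exceed 2.99 FPKM in any library, and its diet differences did not pass the test in either depot.

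On the high-fat diet the ligands Cxcl1, Cxcl2, Cxcl10, Ccl2, Ccl3, Ccl4, Ccl7, Ccl9 and Ccl19 were higher in epididymal adipocyte libraries, and the ligands Cxcl9, Cxcl12, Ccl21a and Ccl24 were lower. Of the 28 ligands tested 9 rose and 4 fell, and of the 13 receptors 2 rose and 1 fell (limma, Benjamini-Hochberg adjusted p under 0.05 over all genes tested). With 1 atypical receptor that fell, 17 of the 45 members were called, 11 higher and 6 lower. The background in the same comparison was 19.5 percent of 14959 genes called, 12.2 percent higher and 7.35 percent lower. The median log2 difference of the 45 members was −0.21, and that of all genes was 0.07. In 21 of the 45 members the 3 high-fat and 3 normal-diet values did not overlap, as in 42.4 percent of all genes. The count of calls was 8 without high-fat replicate 0 and 9 without high-fat replicate 1, beside 12 and 12.8 percent of all genes. Without normal-diet replicate 0 or 2 it was 11, beside 14.9 and 15.3 percent.

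The neutrophil-attracting ligands Cxcl1 and Cxcl2 rose in both white depots. Cxcl2 (ENSMUSG00000058427, chromosome 5, 90903899 to 90905938) stood at 146, 103 and 57.0 FPKM in epididymal high-fat libraries 0, 1 and 2 and at 3.32, 2.02 and 0.406 in normal-diet ones. Every high-fat library was thus far above every normal-diet one, and the ratio of the means was 53.2. The log2 difference, taken on log2(FPKM + 0.5), which understates changes of low genes, was 5.53 (SE 0.56, limma adjusted p = 4.9e-05). In inguinal libraries Cxcl2 was at 36.6, 21.3 and 14.9 FPKM on the high-fat diet and at 1.79, 4.93 and 1.51 on the normal diet, again without overlap (log2 difference 2.99, SE 0.56, limma adjusted p = 0.0042). The interaction test, epididymal minus inguinal diet difference, gave 2.55 for Cxcl2 and did not pass (limma adjusted p = 0.076).

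Cxcl1 (ENSMUSG00000029380, chromosome 5, 90891245 to 90893121) was at 104, 53.4 and 44.5 FPKM in epididymal high-fat libraries and at 4.62, 4.75 and 2.38 in normal-diet ones. In inguinal libraries it was at 103, 44.9 and 42.2 FPKM on the high-fat diet and at 4.27, 24.7 and 0.852 on the normal diet. The high-fat values of both depots lay between 42.2 and 104 FPKM, and the highest normal-diet value, that of inguinal replicate 1, stayed below them. The log2 differences were 3.89 (SE 0.80, limma adjusted p = 0.0052) in the epididymal and 3.43 (SE 0.80, adjusted p = 0.012) in the inguinal depot. Their difference was 0.47 and did not pass (limma adjusted p = 0.86). The inguinal call of Cxcl1 did not hold once high-fat replicate 0 was left out (limma adjusted p = 0.051) or with only the 2 inguinal groups in the fit (adjusted p = 0.087).

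The proportion of these ligands was compared without a test. In epididymal high-fat libraries the Cxcl1 level was 0.715, 0.521 and 0.781 times that of Cxcl2, and in inguinal high-fat libraries it was 2.83, 2.11 and 2.82 times, without overlap. On the normal diet the depots overlapped, at 1.39, 2.35 and 5.86 times in epididymal and 2.39, 5.00 and 0.565 times in inguinal libraries. On the high-fat diet the 5 neutrophil ligands Cxcl1, Cxcl2, Cxcl3, Cxcl5 and Cxcl15 made up 15.1% to 26.2% of the summed ligand FPKM in epididymal and 18.2% to 30.5% in inguinal libraries. On the normal diet they made up 1.203% to 2.49% and 0.67% to 3.87%. Their receptor Cxcr2 was at most 0.912 FPKM in any library, and Cxcr1 was listed at 0 in all 14. Of 8 neutrophil markers 5 were tested, and S100a8, a calcium-binding protein of neutrophils and monocytes, was called higher in the epididymal depot (3.15, limma adjusted p = 0.037), while its partner S100a9 was at 0, 1.04 and 0 FPKM in the epididymal high-fat libraries. The list summed to 54.4 to 63.3 FPKM in epididymal high-fat and 12.46 to 24.9 in normal-diet libraries, but S100a8 alone made up 53.1, 58.1 and 60.6 FPKM of the high-fat sums. The median difference of the 5 tested markers was −1.44, with S100a9 (−1.93), Elane (−1.60) and Retnlg (−1.44) not passing (limma adjusted p = 0.23, 0.067 and 0.24). Ly6g, the surface marker of mouse neutrophils, was listed at 0 in all 6. In inguinal libraries the sums were 12.8 to 31.5 FPKM on the high-fat and 9.51 to 65.3 on the normal diet. The part of neutrophil RNA in the Cxcl1 and Cxcl2 differences was not tested.

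**Figure D1:**
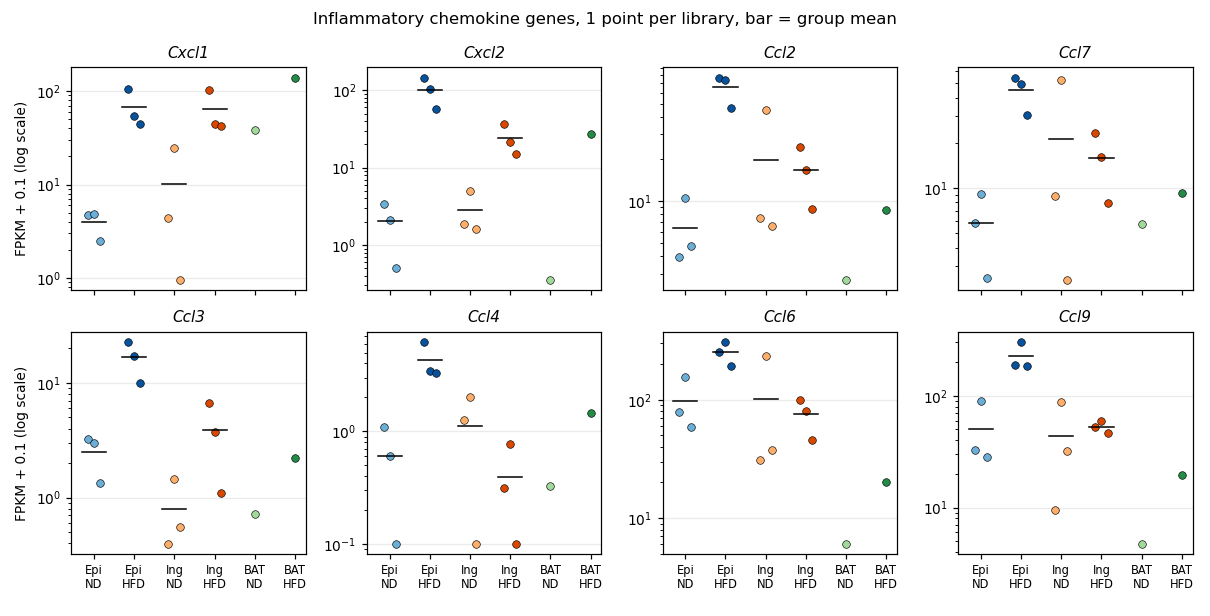
Levels of 8 inflammatory chemokine genes as FPKM + 0.1 on log axes, with 1 point per library and a bar at the mean of each white group (Epi, epididymal; Ing, inguinal; BAT, brown; ND, normal diet; HFD, high-fat diet). In both white depots the high-fat points of Cxcl1 and Cxcl2 lie above the normal-diet points without overlap, while for Ccl2 and Ccl7 inguinal normal-diet replicate 1 (44.8 and 52.5 FPKM) lies above all inguinal high-fat libraries.

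The monocyte ligands Ccl2 and Ccl7 rose in the epididymal depot. Ccl2 (ENSMUSG00000035385, chromosome 11, 82035577 to 82037452) was at 76.7, 73.6 and 46.1 FPKM in epididymal high-fat libraries and at 3.84, 10.4 and 4.61 in normal-diet ones, a ratio of means of 10.4. No values overlapped, and the log2 difference was 3.37 (SE 0.64, limma adjusted p = 0.003). In inguinal libraries Ccl2 was at 24.4, 16.6 and 8.58 FPKM on the high-fat diet and 7.49, 44.8 and 6.52 on chow. There the groups overlapped, because normal-diet replicate 1 was the highest of the 6, and the difference of 0.20 did not pass (limma adjusted p = 0.85). The interaction of 3.17 missed the threshold (limma adjusted p = 0.055).

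Ccl7, a relative of Ccl2 whose gene lies next to it, was at 54.3, 49.3 and 30.4 FPKM in epididymal high-fat libraries and at 5.77, 8.98 and 2.41 in normal-diet ones. The groups did not overlap (log2 difference 2.98, SE 0.83, limma adjusted p = 0.026). Inguinal values were 23.2, 16.0 and 7.83 FPKM on the high-fat diet and 8.67, 52.5 and 2.33 on chow, with the same replicate 1 highest and no call (0.41, adjusted p = 0.76). The epididymal call of Ccl7 did not hold once high-fat replicate 0 or 1 or normal-diet replicate 0 or 2 was dropped (limma, adjusted p = 0.062 to 0.096), and that of Ccl2 was kept without any single library. Ccr2, the receptor of both ligands on monocytes, did not pass in either depot. It was at 13.7, 11.9 and 5.78 FPKM in epididymal high-fat and 15.2, 13.1 and 8.09 in epididymal normal-diet libraries (log2 difference −0.24, SE 0.40, limma adjusted p = 0.74). In inguinal libraries Ccr2 was at 7.22, 4.67 and 2.03 FPKM on the high-fat diet and 7.37, 7.17 and 7.68 on chow (−0.76, limma adjusted p = 0.21).

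The ligands Ccl3, which acts on Ccr1, and Ccl4 rose in the epididymal depot as well. Ccl3 was at 22.8, 17.1 and 9.80 FPKM on the high-fat diet and 3.16, 2.88 and 1.23 on chow (log2 difference 2.54, SE 0.55, limma adjusted p = 0.0067). Ccl4 was at 6.13, 3.33 and 3.18 FPKM on the high-fat diet and at 1.01, 0.509 and 0 on the normal diet (2.31, SE 0.59, limma adjusted p = 0.016). Neither gene's epididymal groups overlapped. The RefSeq spans of Ccl3 and Ccl4 overlap each other and the strand setting of the counting was not given in the sources used here, so reads of this pair may be split between them.

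In inguinal libraries Ccl3 was at 6.61, 3.64 and 0.988 FPKM on the high-fat diet and 0.291, 1.34 and 0.449 on chow and missed the threshold (1.66, limma adjusted p = 0.053). Ccl4 was at 0.215, 0.677 and 0 FPKM on the high-fat diet and 1.17, 1.91 and 0 on chow (−0.75, adjusted p = 0.40). Ccl4 was one of the 7 members whose diet differences differed between the depots. Its interaction was 3.07 (SE 0.83, limma adjusted p = 0.046). That call was lost in 10 of the 12 fits that left out 1 library (limma adjusted p = 0.054 to 0.12), all but those without inguinal normal-diet replicate 1 or 2. The epididymal call of Ccl4 did not hold once high-fat replicate 0 or normal-diet replicate 2 was dropped (limma, adjusted p = 0.075 and 0.065).

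Ccl6 and Ccl9, related CC ligands of macrophages and other myeloid cells, were the ligands with the highest mean over the 14 libraries. Ccl9 was at 188, 304 and 183 FPKM in epididymal high-fat and 32.6, 89.2 and 28.0 in normal-diet libraries, without overlap (2.32, SE 0.64, limma adjusted p = 0.023). Ccl6 was at 255, 309 and 194 FPKM on the high-fat diet and 78.9, 157 and 58.9 on chow. These groups did not overlap either, but the difference of 1.46 did not pass (SE 0.64, limma adjusted p = 0.14). The Ccl9 call was lost in each fit that left out 1 epididymal library other than normal-diet replicate 1 (adjusted p = 0.051 to 0.09).

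In inguinal libraries Ccl6 was at 98.6, 80.6 and 45.8 FPKM on the high-fat diet and 30.9, 236 and 37.4 on chow, and Ccl9 at 52.7, 60.02 and 46.4 FPKM and 9.49, 88.5 and 31.8 FPKM. In both genes normal-diet replicate 1 was the highest of the 6 libraries, and neither passed (limma adjusted p = 0.91 and 0.41). That library also had the highest sum of macrophage markers of its group, 597 FPKM against 217 and 231. The epididymal rise of these ligands came with 7 of 15 macrophage markers called higher and 1, Cd163, called lower. In the inguinal depot 2 of the 15 were called higher and 0 lower. The part of macrophage RNA in these differences was not tested.

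**Figure D2:**
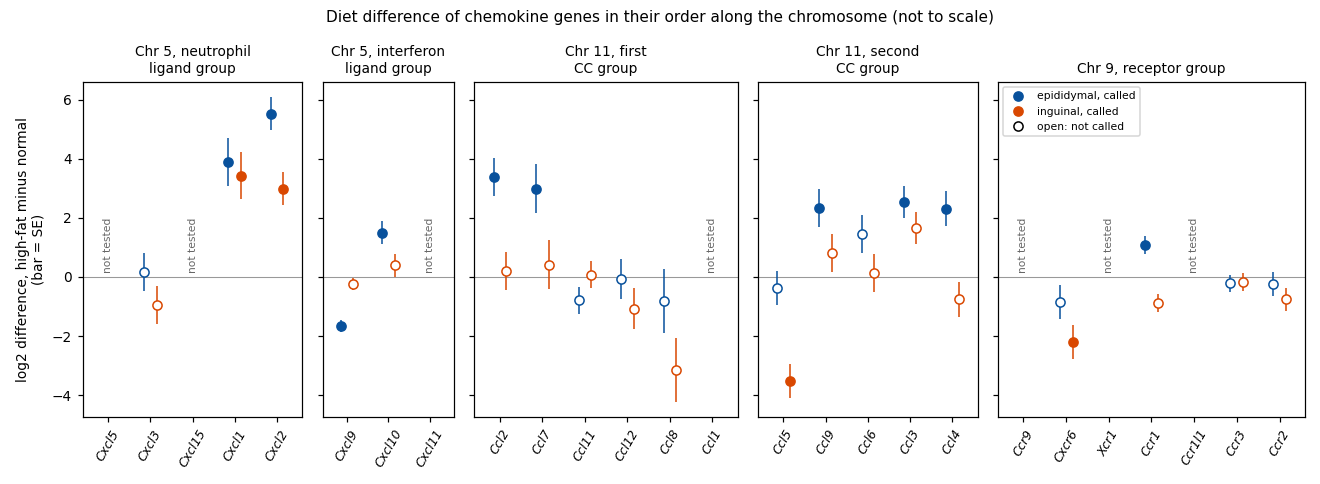
Diet difference (high-fat minus normal, log2 of FPKM + 0.5, bars show SE) of neighbouring chemokine genes in their order along mouse chromosomes 5, 11 and 9, with filled points for calls and open points for members tested and not called. Within the first CC group on chromosome 11, Ccl2 and Ccl7 were higher in the epididymal depot while Ccl11, Ccl12 and Ccl8 did not pass.

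Many of these genes lie next to each other, and calls did not cover whole neighbourhoods. On chromosome 5 Cxcl5, Cxcl3, Cxcl15, Cxcl1 and Cxcl2 span 146.6 kb, from 90759298 to 90905938. Of the 3 tested there, Cxcl1 and Cxcl2 rose in both depots and Cxcl3 in neither. On chromosome 11 the 6 genes from Ccl2 to Ccl1 span 144.2 kb, from 82035577 to 82179812, and 2 of the 5 tested, Ccl2 and Ccl7, rose in the epididymal depot. The second group on chromosome 11, from Ccl5 to Ccl4, spans 138.9 kb, from 83525778 to 83664683. In it Ccl9, Ccl3 and Ccl4 rose in the epididymal depot, and Ccl5 fell in the inguinal one. The receptor genes on chromosome 9 from Ccr9 to Ccr2 span 341.9 kb, from 123767211 to 124109140. Among them Ccr1 rose in the epididymal depot, Cxcr6 fell in the inguinal one, and Ccr2 and Ccr3 did not pass in either.

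The ligands of the interferon group, Cxcl9 and Cxcl10, moved in opposite directions in the epididymal depot, although both bind Cxcr3, a receptor of activated T cells and NK cells. Cxcl9 was at 5.79, 5.64 and 5.22 FPKM in epididymal high-fat and 22.0, 18.8 and 15.6 in normal-diet libraries (−1.66, SE 0.20, limma adjusted p = 0.00014). Cxcl10 was at 5.28, 6.41 and 3.96 FPKM on the high-fat diet and 2.33, 1.93 and 0.673 on chow (1.49, SE 0.39, limma adjusted p = 0.018). Neither gene's groups overlapped, and on the normal diet every epididymal Cxcl9 value was above every Cxcl10 value. The RefSeq span of Cxcl10 overlaps that of Art3, so some of its reads may belong to that gene.

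In inguinal libraries Cxcl9 was at 15.02, 12.7 and 15.8 FPKM on the high-fat diet and 19.6, 13.2 and 19.6 on chow (−0.24, limma adjusted p = 0.41). The interaction of Cxcl9 was −1.42 (SE 0.28, limma adjusted p = 0.013), the only negative one among the 7 calls. Inguinal Cxcl10 was at 10.8, 5.00 and 5.29 FPKM on the high-fat diet and 3.28, 5.40 and 6.604 on chow (0.40, adjusted p = 0.51). Cxcl11, a pseudogene in the RefSeq table, did not exceed 0.547 FPKM. The epididymal call of Cxcl10 did not hold once high-fat replicate 0 or 1 or normal-diet replicate 2 was dropped (limma, adjusted p = 0.062 to 0.077), and that of Cxcl9 was kept without any single library.

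Cxcr3 fell in both depots. It was at 0.0428, 0.0814 and 0 FPKM in epididymal high-fat and 0.731, 1.57 and 1.13 in normal-diet libraries (−1.57, SE 0.43, limma adjusted p = 0.024). In inguinal libraries it was at 0.293, 0.205 and 0.332 FPKM on the high-fat diet and 3.81, 1.30 and 6.98 on chow (−2.32, SE 0.43, limma adjusted p = 0.0041). The groups did not overlap in either depot. The epididymal call was lost without any 1 of the 3 high-fat libraries or normal-diet replicate 1 or 2 (limma adjusted p = 0.061 to 0.085). The 12 T and NK cell markers were called 0 times in the epididymal depot, where they summed to 4.28 to 9.41 FPKM on the high-fat and 6.47 to 13.2 on the normal diet.

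Cxcl12, which retains cells through Cxcr4 and is made by stromal cells, endothelium and adipocytes, fell in both depots. It was at 45.3, 54.7 and 49.6 FPKM in epididymal high-fat and 84.6, 112 and 76.0 in normal-diet libraries (−0.84, SE 0.17, limma adjusted p = 0.0046). In inguinal libraries it was at 29.3, 35.8 and 29.5 FPKM on the high-fat diet and 68.0, 71.1 and 72.1 on chow (−1.15, SE 0.17, limma adjusted p = 0.0013). All high-fat values lay below all normal-diet values of the same depot, and the interaction of 0.31 did not pass (limma adjusted p = 0.51). Cxcl12, Cxcl1, Cxcl2 and Cxcr3 were the members called in both depots, 4 of the 17 epididymal and 4 of the 13 inguinal calls, and each moved the same way in both. Of the 12 endothelial markers 11 were called lower in the epididymal depot and 2 in the inguinal one, and of 11 fibroblast and progenitor markers 6 and 5 were called lower and 0 and 1 higher. Fibroblast sums were 320 to 404 FPKM in epididymal high-fat and 771 to 1300 in normal-diet libraries, and 821 to 1022 and 695 to 1875 in the inguinal groups. Their part in the Cxcl12 difference was not tested.

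The receptors of Cxcl12 were not called in either diet comparison. Cxcr4 was at 20.9, 18.6 and 13.4 FPKM in epididymal high-fat and 7.14, 7.07 and 3.98 in normal-diet libraries, higher without overlap (1.48, SE 0.55, limma adjusted p = 0.083). In inguinal libraries it was at 11.1, 13.0 and 9.13 FPKM on the high-fat diet and 97.6, 11.96 and 30.6 on chow (−1.55, SE 0.55, limma adjusted p = 0.069). Neither difference passed, but their difference of 3.04 did (SE 0.78, limma adjusted p = 0.039). The Cxcr4 interaction was lost in 10 of the 12 fits without 1 library (limma adjusted p = 0.055 to 0.10) and kept without inguinal normal-diet replicate 0 or 1. It was also lost when inguinal normal-diet replicates 0 and 2 were left out together (1.61, limma adjusted p = 0.059). Ackr3, the atypical receptor that takes up Cxcl12, was at 25.3, 15.3 and 20.6 FPKM and 12.8, 13.1 and 10.2 FPKM in the epididymal groups and did not pass (0.72, limma adjusted p = 0.21). In the inguinal groups Ackr3 was at 7.11, 8.81 and 5.64 FPKM and 8.39, 18.4 and 5.04 FPKM (−0.37, adjusted p = 0.52).

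Among the lymphoid and eosinophil ligands, Ccl24 and Ccl21a fell and Ccl19 rose in the epididymal depot. Ccl24, an eosinophil ligand of Ccr3 that resident macrophages can make, was at 0.843, 0.747 and 0.739 FPKM on the high-fat diet and 7.72, 9.11 and 3.18 on chow, without overlap (−2.38, SE 0.59, limma adjusted p = 0.014). In inguinal libraries Ccl24 was at 2.62, 1.84 and 0.809 FPKM on the high-fat diet and 1.16, 8.06 and 1.19 on chow (−0.44, adjusted p = 0.64). Its epididymal call was lost without normal-diet replicate 0 or 1 (limma adjusted p = 0.055 and 0.056). Ccl11, the other eosinophil ligand among the 8 members with the highest mean, was at 18.5, 22.6 and 20.7 FPKM and 40.8, 54.7 and 20.5 FPKM in the epididymal groups and did not pass (−0.79, limma adjusted p = 0.27). In the inguinal groups Ccl11 was at 31.3, 26.5 and 16.5 FPKM and 18.5, 49.4 and 12.6 FPKM (0.08, adjusted p = 0.92), and Ccr3 did not exceed 0.832 FPKM in any library.

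Ccl21a, a ligand of Ccr7 from lymphatic endothelium and lymph node stroma, was at 0.443, 0.377 and 0 FPKM in epididymal high-fat and 12.1, 12.3 and 0.432 in normal-diet libraries. Normal-diet replicate 2 overlapped the high-fat group, and the call was near the threshold (−2.83, SE 0.89, limma adjusted p = 0.043). It was lost in each fit without 1 epididymal library other than normal-diet replicate 2 (adjusted p = 0.087 to 0.16) and with only the 2 epididymal groups in the fit (adjusted p = 0.11). Lyve1, a marker of lymphatic endothelium and some macrophages, was at 11.05, 18.6 and 2.52 FPKM in the same normal-diet libraries. In the high-fat ones Lyve1 was at 0.632, 1.83 and 0.585. It belongs to a list of 9 lymph node stroma and vessel markers. Of the 4 tested in the epididymal depot 1 was called higher, 0 lower and 3 neither, so Lyve1 was not called lower. The list summed to 598 to 746 FPKM in epididymal high-fat and 109 to 180 in normal-diet libraries. The median log2 difference of its 4 tested markers was −0.28, so the higher sum does not stand for the list as a whole. Copies of Ccl21 are nearly identical and Ccl21b was listed at 0 in every library, so reads may be assigned to 1 copy for several. In inguinal libraries Ccl21a was at 0, 0.560 and 0 FPKM and 1.77, 0 and 0.954 FPKM (−0.88, limma adjusted p = 0.52).

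Ccl19, the other Ccr7 ligand, was at 1.97, 2.72 and 4.22 FPKM in epididymal high-fat and 0.563, 1.18 and 0 in normal-diet libraries (1.80, SE 0.56, limma adjusted p = 0.041). The groups did not overlap, and the call was lost in each fit without 1 epididymal library other than normal-diet replicate 1 (adjusted p = 0.068 to 0.15). In inguinal libraries Ccl19 was at 0.198, 0 and 0 FPKM and 1.62, 0.140 and 0 FPKM (−0.65, adjusted p = 0.44). Ccr7 itself was at most 0.577 FPKM in the 6 epididymal libraries.

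**Figure D3:**
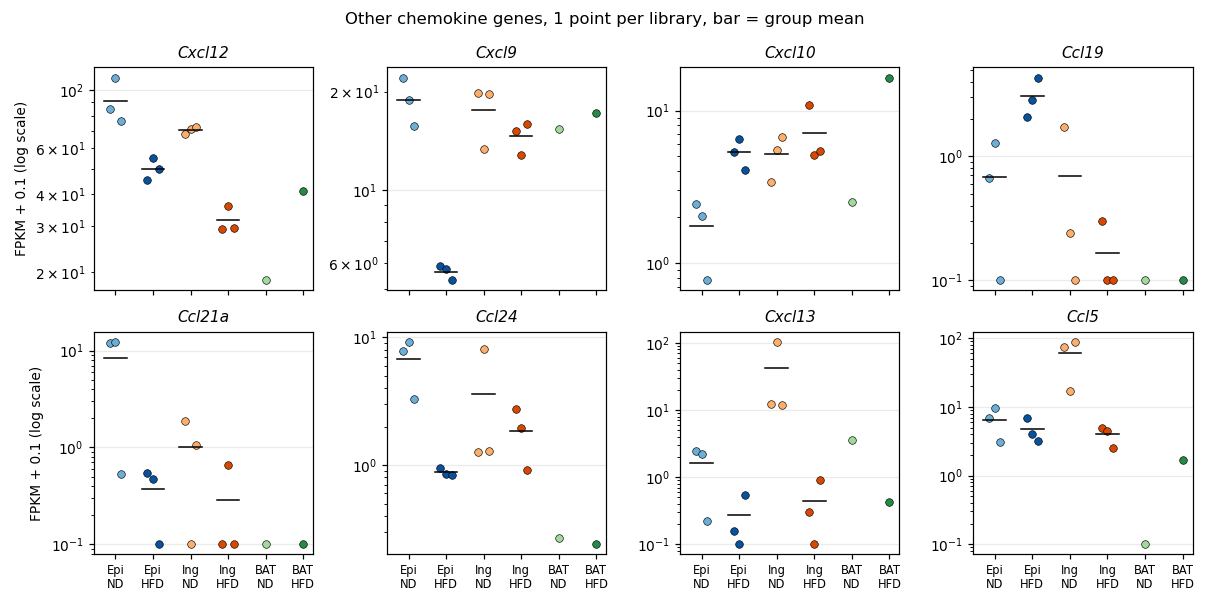
Levels of 8 further chemokine genes as FPKM + 0.1 on log axes, with 1 point per library and a bar at each white group's mean (abbreviations as in the plot of inflammatory chemokines). Cxcl12 is lower on the high-fat diet in both white depots, Cxcl9 in the epididymal depot, and Cxcl13 and Ccl5 in the inguinal depot.

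The epididymal calls of Ccl3, Cxcl1, Cxcl9, Ccl2 and Cxcl2 and the interaction call of Cxcl9 were kept in all alternatives run, and the epididymal call of Cxcl12 in all but that of a 2-fold minimum.

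Among the receptors, Ccr1 rose in the epididymal depot. Ccr1, a myeloid receptor of Ccl3, Ccl6 and Ccl9, was at 4.87, 4.53 and 2.93 FPKM in epididymal high-fat and 2.01, 2.18 and 0.965 in normal-diet libraries (1.08, SE 0.29, limma adjusted p = 0.02). In inguinal libraries it was at 0.816, 0.838 and 0.649 FPKM on the high-fat diet and 1.53, 1.79 and 2.19 on chow (−0.88, SE 0.29, limma adjusted p = 0.051). Neither depot's groups overlapped, and the interaction of 1.95 passed (SE 0.41, limma adjusted p = 0.016). The epididymal call did not hold once high-fat replicate 0 or 1 or normal-diet replicate 2 was left out (adjusted p = 0.072 to 0.094), nor with only the 2 epididymal groups in the fit (adjusted p = 0.053). The interaction was lost without epididymal high-fat replicate 0 or 1 (limma adjusted p = 0.057 and 0.054). Cd68, a lysosomal protein of macrophages, was at 367, 347 and 246 FPKM in the epididymal high-fat libraries and 30.3, 42.7 and 30.8 in the normal-diet ones, and the part of macrophage RNA in the receptor differences was not tested.

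In the inguinal depot the high-fat diet came with lower levels of the ligands Cxcl13, Ccl5, Ccl22 and Cxcl12, the receptors Ccr7, Cxcr5, Ccr6, Cxcr6 and Cxcr3 and the atypical receptors Ackr1 and Ackr2, and with higher Cxcl1 and Cxcl2. Of the 28 ligands 2 rose and 4 fell, of the 13 receptors 0 rose and 5 fell, and of the 4 atypical receptors 2 fell. These 13 calls, 2 higher and 11 lower, stand beside a background of 19.5 percent of genes called, 9.3 percent higher and 10.2 percent lower. The median of the 45 members was −0.66 and that of all genes was −0.01. Groups did not overlap in 17 of the 45 members, as in 33.1 percent of all genes. The count was 8 without normal-diet replicate 2, beside 13 percent of all genes. With only the 2 inguinal groups in the fit it was 6, beside 4.77 percent of all genes, and the calls of Cxcr3, Cxcr5, Ccr7, Ccl22, Ackr2, Cxcl1 and Cxcr6 were lost (limma adjusted p = 0.053 to 0.11).

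**Figure D4:**
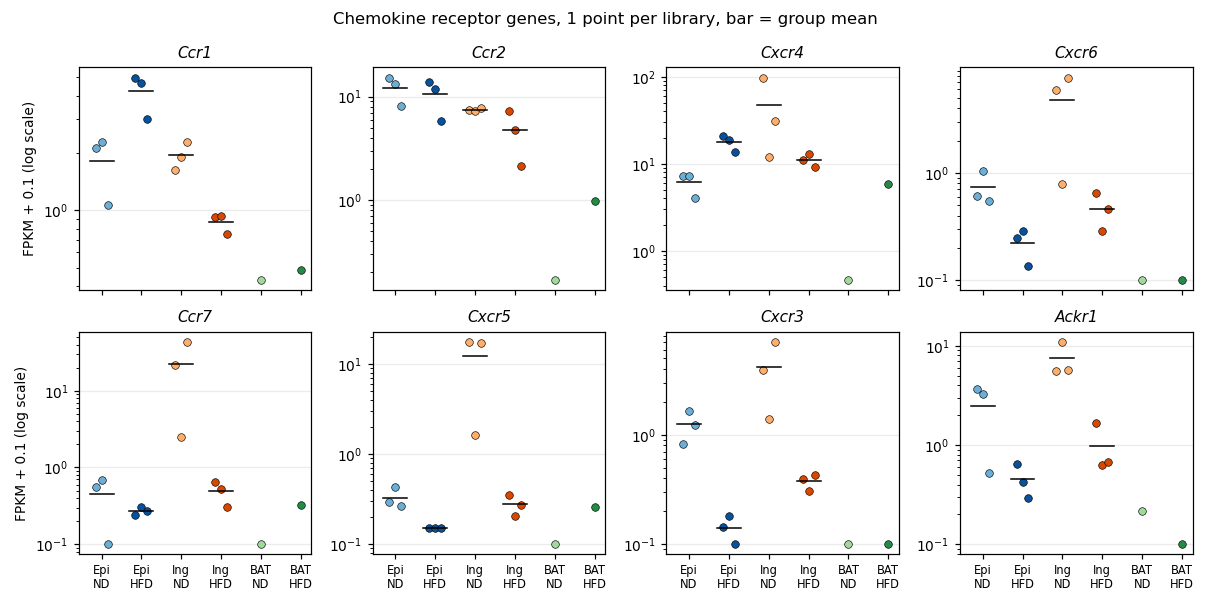
Levels of 8 receptor genes as FPKM + 0.1 on log axes, with 1 point per library and a bar at each white group's mean (abbreviations as in the plot of inflammatory chemokines). Ccr7 and Cxcr5 are highest in inguinal normal-diet replicates 0 and 2, and Ccr1 is highest in the epididymal high-fat libraries.

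Cxcl13 (chromosome 5, 95956939 to 95961068), the B cell ligand of Cxcr5, had the largest inguinal log2 difference of the 45 members. It was at 0.207, 0 and 0.811 FPKM in inguinal high-fat and 12.3, 104 and 11.8 in normal-diet libraries (−5.04, SE 0.80, limma adjusted p = 0.0019). Its highest value was that of replicate 1, which held the lowest lymphocyte marker sums of the group. The same library held the highest macrophage, neutrophil and fibroblast marker sums of the group (597, 65.3 and 1875 FPKM). Its endothelial sum was the lowest (441 FPKM). The part of any of these cells in the Cxcl13 difference was not tested. In epididymal libraries Cxcl13 was at 0.0579, 0 and 0.447 FPKM on the high-fat diet and 2.39, 2.13 and 0.119 on chow (−1.38, limma adjusted p = 0.27).

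Cxcr5, the B cell receptor of Cxcl13, was at 0.257, 0.104 and 0.172 FPKM in inguinal high-fat and 17.7, 1.52 and 17.3 in normal-diet libraries (−3.69, SE 0.65, limma adjusted p = 0.0033). Ccr7 (chromosome 11, 99144199 to 99155077), the homing receptor of naive T cells and dendritic cells, was at 0.540, 0.424 and 0.208 FPKM on the high-fat diet and 21.8, 2.43 and 43.3 on chow (−4.01, SE 0.74, limma adjusted p = 0.0041). Ccr6, a receptor of B cells and some T cells, was at 0.337, 0 and 0.091 FPKM on the high-fat diet and 14.9, 1.95 and 6.02 on chow (−3.32, SE 0.52, limma adjusted p = 0.0017). Cxcr5 and Ccr6 reached the level for a test only through the 3 inguinal normal-diet libraries, the group in which they are high, so their calls are no independent support for a fall. With no such level set, the differences of Cxcr5 and Ccr6 had limma adjusted p of 0.0098 and 0.005. Outside that group Ccr7 reached the level only in epididymal normal-diet replicate 1 (0.577 FPKM) and inguinal high-fat replicate 0 (0.540 FPKM). These were too few libraries for a test, so the Ccr7 call is no independent support either. It was kept with no such level set. In all of these receptors the normal-diet libraries lay above the high-fat ones, with replicate 1 lowest of its group. Cxcr6, a receptor of effector T cells, was at 0.548, 0.186 and 0.355 FPKM on the high-fat diet and 5.78, 0.685 and 7.63 on chow (−2.21, SE 0.57, limma adjusted p = 0.02). The Cxcr6 call did not hold once high-fat replicate 1 or 2 or normal-diet replicate 0 or 2 was dropped (limma, adjusted p = 0.055 to 0.073).

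Epididymal libraries held little of these receptors. Cxcr5 was at 0.0501, 0.0514 and 0.0507 FPKM on the high-fat diet and 0.195, 0.330 and 0.167 on chow (−0.40, limma adjusted p = 0.74). Ccr6 was listed at 0 in all 3 high-fat libraries and was at 0.0804, 0.0367 and 0 FPKM on the normal diet, so no fold is given. For Ccr6 the interaction passed at 3.21 (SE 0.73, limma adjusted p = 0.024), and it was lost without epididymal high-fat replicate 0 or 1, epididymal normal-diet replicate 0 or 2, or inguinal high-fat replicate 1 or 2 (adjusted p = 0.052 to 0.064). This interaction rests on the same 3 inguinal normal-diet libraries through which Ccr6 entered the test, and with no such level set its limma adjusted p was 0.047. Ccr7 was at 0.140, 0.210 and 0.173 FPKM on the high-fat diet and 0.458, 0.577 and 0 on chow (−0.25, limma adjusted p = 0.87), and its interaction of 3.76 missed the threshold (adjusted p = 0.052). Epididymal Cxcr6 was at 0.145, 0.184 and 0.0363 FPKM and 0.506, 0.944 and 0.443 FPKM (−0.85, adjusted p = 0.36). The ligand of Ccr6, Ccl20, was at most 0.0571 FPKM in any library.

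Ccl5 (chromosome 11, 83525778 to 83530518), which T cells and NK cells make, fell in the inguinal depot. It was at 4.77, 4.42 and 2.41 FPKM on the high-fat diet and 75.3, 16.8 and 88.6 on chow (−3.53, SE 0.58, limma adjusted p = 0.0021). In epididymal libraries it was at 6.76, 3.89 and 3.12 FPKM on the high-fat diet and 6.76, 9.46 and 2.98 on chow (−0.37, limma adjusted p = 0.72). The interaction was 3.16 (SE 0.82, limma adjusted p = 0.039). It was lost in 10 of the 12 fits without 1 library (limma adjusted p = 0.053 to 0.10). The 2 that kept it were those without epididymal normal-diet replicate 1 or inguinal normal-diet replicate 1. The interaction was also lost with TMM scaling and with no level set for a test (limma adjusted p = 0.051 and 0.085). When inguinal normal-diet replicates 0 and 2 were left out, it was 1.66. Ccl22, a ligand of Ccr4 from dendritic cells, was at 0.413, 0.562 and 0.138 FPKM on the high-fat diet and 6.02, 1.25 and 5.71 on chow of the inguinal depot (−2.28, SE 0.56, limma adjusted p = 0.015). That call did not hold once high-fat replicate 2 or normal-diet replicate 0 or 2 was dropped (limma, adjusted p = 0.055 to 0.057). Epididymal Ccl22 was at 0.711, 1.54 and 0.517 FPKM and 1.05, 0.848 and 0 FPKM (0.42, adjusted p = 0.67). Ccr4 was at 1.43 and 2.38 FPKM in inguinal normal-diet replicates 0 and 2 and at most 0.0999 FPKM in the other 12 libraries. Cxcl16, the ligand of Cxcr6, was at 1.58, 3.12 and 1.08 FPKM and 4.27, 2.64 and 9.43 FPKM in the inguinal groups and missed the threshold (−1.21, limma adjusted p = 0.055). In the epididymal groups Cxcl16 was at 5.59, 6.90 and 4.35 FPKM and 4.29, 5.20 and 3.58 FPKM (0.32, adjusted p = 0.65).

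These falls came with lymphocyte markers: all 10 B cell markers and all 12 T and NK cell markers tested were called lower on the high-fat diet in the inguinal depot. The lymph node vessel markers Glycam1 and Madcam1 were at most 2.05 and 0.275 FPKM, with Glycam1 above 0 in inguinal normal-diet replicates 0 and 1 only. When inguinal normal-diet replicates 0 and 2 were left out, 6 members were called, 0 higher and 6 lower, and 4 of them were among the 13. The 4 were Cxcl13 (−7.07, limma adjusted p = 0.0012), Cxcl12 (−1.17, adjusted p = 0.019), Ackr1 (−3.11, adjusted p = 0.034) and Ackr2 (−2.22, adjusted p = 0.049). This fit leaves 1 normal-diet library, which is assumed to vary like the other groups. Calls lost in it were those of Ccr7 (−1.73, limma adjusted p = 0.055), Ccl5 (−2.03, adjusted p = 0.064), Cxcr3 (−1.22, adjusted p = 0.094), Cxcl2 (2.1, adjusted p = 0.13), Cxcl1 (1.22, adjusted p = 0.26), Ccl22 (−1.04, adjusted p = 0.40) and Cxcr6 (−0.48, adjusted p = 0.57). Cxcr5 and Ccr6 did not reach the level needed for a test in it. The normal-diet library left in the fit still held 68.7 FPKM of B cell and 38.0 FPKM of T and NK cell markers. The inguinal high-fat libraries held 6.30 to 14.6 and 4.16 to 11.8 FPKM of them. This fit thus does not separate lymphocyte RNA from the differences, and its part was not tested.

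Of the 4 atypical receptors, Ackr1 and Ackr2 fell in the inguinal depot. Ackr1, the chemokine carrier of venular endothelium and red cells, was at 1.56, 0.524 and 0.581 FPKM on the high-fat diet and 5.50, 10.9 and 5.66 on chow (−2.51, SE 0.52, limma adjusted p = 0.0072). Ackr2, a scavenger of inflammatory CC ligands on lymphatic endothelium, was at 0.317, 0.317 and 0.0179 FPKM on the high-fat diet and 0.998, 2.78 and 1.37 on chow (−1.58, SE 0.44, limma adjusted p = 0.027). Neither gene's inguinal groups overlapped, and the Ackr2 call was lost in 5 of 6 fits without 1 library (adjusted p = 0.053 to 0.099), all but that without normal-diet replicate 0. Outside the inguinal normal-diet group Ackr2 reached the level for a test only in epididymal normal-diet replicates 0 and 1. It thus entered the test through the group in which it is high, and its call is no independent support for a fall.

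In epididymal libraries the same pair did not pass. Ackr1 was at 0.549, 0.327 and 0.194 FPKM and 3.58, 3.18 and 0.422 FPKM (−1.51, limma adjusted p = 0.064), and Ackr2 was at 0.145, 0.384 and 0 FPKM and 1.21, 2.14 and 0.380 FPKM (−1.26, adjusted p = 0.066). Ackr4, which scavenges Ccl19, Ccl21 and Ccl25, fell in the epididymal depot, from 1.51, 1.10 and 2.96 FPKM on the normal diet to 0.207, 0.416 and 0.412 on the high-fat diet (−1.41, SE 0.40, limma adjusted p = 0.025). That call was lost in each fit without 1 epididymal library other than normal-diet replicate 1 (limma adjusted p = 0.056 to 0.10). Outside the epididymal normal-diet group, where it is high, Ackr4 reached the level for a test only in inguinal normal-diet replicate 1. The Ackr4 call is thus no independent support for a fall. Inguinal Ackr4 was at 0.0682, 0.132 and 0.460 FPKM and 0.175, 0.878 and 0.137 FPKM (−0.26, adjusted p = 0.68). The RefSeq spans of Ackr1 and Ackr4 overlap those of Cadm3 and Acad11, so their reads are uncertain. Of 12 endothelial markers 11 were called lower in the epididymal depot, where Ackr4 was called and Ackr1 and Ackr2 did not pass. In the inguinal depot, where Ackr1 and Ackr2 were called, 2 of the 12 were called lower and 10 neither way. The part of endothelial RNA in these differences was not tested.

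**Figure D5:**
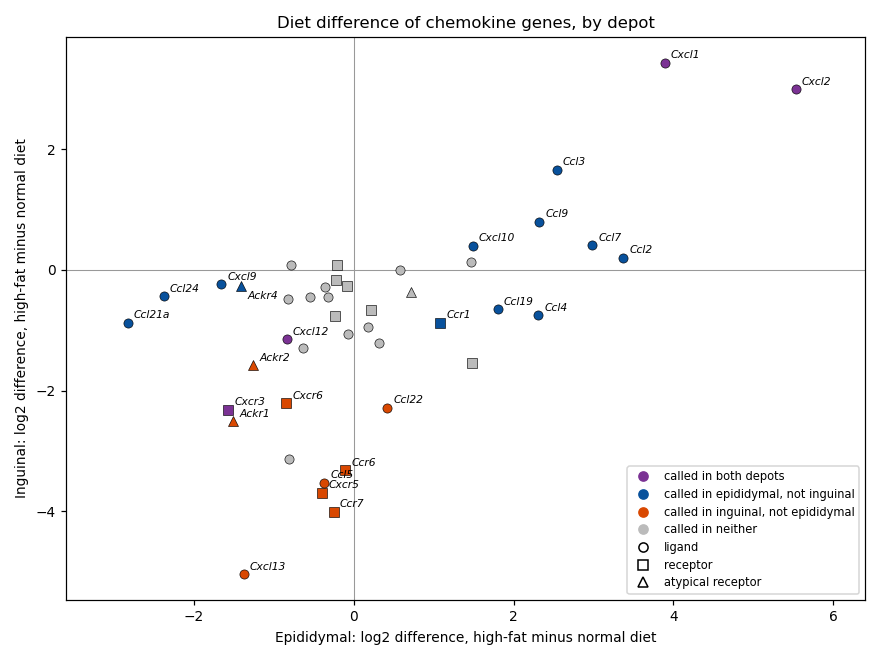
Diet difference (high-fat minus normal diet, log2 of FPKM + 0.5) of members tested, with the epididymal depot on the x axis and the inguinal depot on the y axis; symbols mark ligands, receptors and atypical receptors, and colours mark calls. Cxcl1 and Cxcl2 lie high in both depots. The epididymal calls Ccl2, Ccl7, Cxcl9, Cxcl10 and Ackr4 lie near 0 on the y axis, and Ccl3 lies above 0 there. The inguinal calls Ccl5, Ccl22, Ccr6, Ccr7 and Cxcr5 lie low on the y axis and near 0 on the x axis. Cxcl13, Ackr1, Ackr2, Cxcr3, Cxcr6 and Cxcl12, also called in the inguinal depot, lie below 0 on both axes.

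The difference of the diet effects between the depots was tested for each member. It was called for 7 of 45, 6 with a higher epididymal difference (among them Ccr6, Ccl5, Ccl4, Cxcr4 and Ccr1) and 1 with a lower one (Cxcl9), beside 7.22 percent of all genes (4.8 percent higher and 2.42 percent lower). The median over the 45 members was 1.01 and that over all genes was 0.07. With TMM scaling 4 were called, 3 higher and 1 lower, beside 7.83 percent of all genes. Ccr1, Ccl4 and Cxcr4 had a positive epididymal and a negative inguinal difference. Ccl5 and Ccr6 had epididymal differences of −0.37 and −0.11 beside inguinal ones of −3.53 and −3.32. The count was 2 without epididymal high-fat replicate 0 or 1, beside 2.9 and 3.03 percent of all genes. It was 3 without epididymal normal-diet replicate 0 or inguinal high-fat replicate 1 or 2, beside 4.1, 4.1 and 3.4 percent. Without epididymal high-fat replicate 2, epididymal normal-diet replicate 2 or inguinal high-fat replicate 0 it was 4, beside 5.15, 4.24 and 4.55 percent. It was 13 without inguinal normal-diet replicate 1, where 17.3 percent of all genes were called.

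Depots were also compared on each diet. On the normal diet 8 of 45 members were called, all lower in the epididymal depot, beside 6.51 percent of all genes (2.36 percent higher and 4.15 percent lower). Groups did not overlap in 14 members, as in 19.1 percent of all genes. Ccr7 (−4.15), Cxcl13 (−3.92), Cxcr5 (−3.58), Ccr6 (−3.54), Ccl5 (−2.95) and Cxcr4 (−2.40) had limma adjusted p of 0.004 to 0.027. These are the members that are high in the inguinal normal-diet libraries described above, and both comparisons share those libraries. Cxcr5 and Ccr6 entered this test only through the 3 inguinal normal-diet libraries, the group in which they are high. Ccr7 would not have reached the level for a test without that group. The calls of Cxcr5, Ccr6 and Ccr7 are thus no independent support for a depot difference. Of the 10 B cell markers all 10, and of the 12 T and NK cell markers 9, were called lower in the same comparison, and their part was not tested. Cxcl10 was also called (−1.43, limma adjusted p = 0.0495), a call lost in 4 of the 6 fits without 1 library and 8 of the 11 other alternatives (adjusted p up to 0.24), as was Cxcl14 (−1.91, adjusted p = 0.012). With TMM scaling the split was 1 higher and 7 lower, beside 8.23 percent of all genes called. Without epididymal normal-diet replicate 2 or inguinal normal-diet replicate 2 the count was 3, beside 1.69 and 2.21 percent of all genes, and without inguinal normal-diet replicate 1 it was 14, beside 20.3 percent. With only the 2 groups compared in the fit, 0 members and 0.0936 percent of all genes were called, and the 8 members had limma adjusted p of 0.12 to 0.24. When inguinal normal-diet replicates 0 and 2 were left out, the calls of Ccr7, Cxcl10, Cxcr4 and Ccl5 were lost (limma adjusted p = 0.059 to 0.23). Ccr6 and Cxcr5 were kept in the 3 fits that left out 1 epididymal library and did not reach the level for a test in the 3 that left out 1 inguinal library.

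On the high-fat diet 11 members were called between the depots, 9 higher and 2 lower in epididymal adipocytes, beside 10.6 percent of all genes (7.08 percent higher and 3.53 percent lower). Groups did not overlap in 22 members, as in 38.4 percent of all genes. Among those higher in the epididymal depot were Ccl4 (2.60), Ccl19 (2.58), Ccl3 (2.20), Cxcl2 (2.04), Ccr1 (1.84), Ackr3 (1.43), Cxcl16 (1.40) and Cxcl12 (0.66), with limma adjusted p of 0.0023 to 0.047. Lower were Cxcl14 (−1.32, limma adjusted p = 0.037) and Cxcl9 (−1.31, adjusted p = 0.0021). In the same comparison 11 of the 15 macrophage markers were called higher and 11 of the 12 endothelial markers lower in the epididymal depot (medians 2.02 and −2.12), and their part was not tested. The calls of Ccr1 and Cxcl9 were kept in each fit without 1 library. With the replicate number as a block 14 members were called, 12 higher and 2 lower, beside 11.9 percent of all genes. Of these members 10 were among the 11, and Cxcl16 was lost (limma adjusted p = 0.07). The count was 4 without epididymal high-fat replicate 0 or inguinal high-fat replicate 2, beside 5.23 and 5.48 percent of all genes. It was 6 without epididymal high-fat replicate 1 and 7 without epididymal high-fat replicate 2, beside 5.17 and 7 percent.

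Cxcl14, a CXC ligand of epithelia and brown fat, was lower in epididymal adipocytes on both diets and did not pass the diet test in either depot (0.58 and −0.01, limma adjusted p = 0.31 and 0.99). It was at 2.89, 2.76 and 1.55 FPKM and 1.504, 2.08 and 0.818 FPKM in the epididymal high-fat and normal-diet libraries. In the inguinal ones it was at 6.59, 6.86 and 6.27 FPKM and 4.76, 12.1 and 4.90 FPKM. All inguinal values thus lay above all epididymal ones. The high-fat call was lost in each of the 6 fits without 1 library (limma adjusted p = 0.075 to 0.14) and with no level set for a test (0.077), and the normal-diet call without epididymal replicate 2 (adjusted p = 0.058). Cxcl14 was chosen after its values were seen, as was Ccl8, a monocyte and T cell ligand. Ccl8 was at 4.39, 6.24 and 3.35 FPKM and 15.8, 29.0 and 0.935 FPKM in the epididymal and 3.98, 15.1 and 1.06 FPKM and 32.4, 125 and 17.4 FPKM in the inguinal groups. Ccl8 did not pass in either depot (limma adjusted p = 0.68 and 0.063).

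The summed level of all ligands was 959, 1035 and 671 FPKM in epididymal high-fat libraries and 347, 547 and 232 in normal-diet ones. In inguinal libraries it was 461, 364 and 250 FPKM on the high-fat diet and 326, 879 and 352 on the normal diet, so the groups overlapped there. Summed receptor levels, with the atypical receptors included, were 90.1, 73.3 and 56.8 FPKM and 51.6, 51.3 and 32.1 FPKM in the epididymal groups. In the inguinal groups they were 36.6, 33.7 and 22.3 FPKM and 197, 70.8 and 150 FPKM. The ligand with the highest level was Ccl6 in all 3 epididymal high-fat libraries, Ccl5 in inguinal normal-diet replicates 0 and 2, and Cxcl1 in both brown libraries. The brown libraries also differ from the white ones in digestion time.

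In brown adipocytes, with 1 library per diet and so no replicate check, more members were higher than lower on the high-fat diet. Of the 19 members that averaged 1 FPKM or more over the 2 libraries, 10 were at least 2-fold higher and 1 was lower, on FPKM + 0.5, beside 11.1 percent and 6.49 percent of 11518 genes. Their median log2 ratio was 1.09 and that of all these genes was 0.06. Cxcl2 was at 26.8 FPKM on the high-fat diet and 0.253 on chow, a log2 ratio of 5.18. Cxcl1 was at 139 and 38.4 FPKM (log2 ratio 1.85), and the high-fat value was the highest Cxcl1 level of all 14 libraries. Brown cells were digested for 40 min and white cells for 20 min. Pad and digestion time thus cannot be told apart where brown levels are set beside white ones. Cxcr4 was at 5.72 and 0.363 FPKM and Cxcl10 at 16.3 and 2.40 FPKM, with log2 ratios of 2.85 and 2.54. The rest of the 10 were Ccl9 (1.97), Ccl6 (1.69), Ccl2 (1.55), Ccl3 (1.22), Cxcl12 (1.12) and Ackr3 (1.09). Cxcl12 was at 41.0 FPKM on the high-fat diet and 18.5 on chow, the opposite direction to both white depots. Cxcl13 was lower, at 0.325 against 3.42 FPKM (−2.25). In the high-fat and the normal-diet brown library macrophage markers summed to 194 and 36.8 FPKM, endothelial markers to 519 and 158 FPKM, and fibroblast and progenitor markers to 586 and 366 FPKM. The part of these cells, the last 2 of which are known sources of Cxcl12, was not tested.

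Against the 12 white libraries, both brown values lay below all white values for 10 of the 45 members, as for 11.4 percent of all genes. Among these were the ligands Ccl5, Ccl6, Ccl24 and Cxcl16, the receptors Ccr1, Ccr2, Ccr3 and Cxcr6, and Ackr1. No member lay above all white values in both brown libraries, as did 0.856 percent of genes. Pad and digestion time cannot be told apart here either.

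The other genes of the pathway were taken from 3 lists. Beside their counts, 12.2 percent of all genes were called higher and 7.35 percent lower in the epididymal depot. In the inguinal depot 9.3 percent of all genes were called higher and 10.2 percent lower. Of 28 genes of chemokine receptor signalling, 8 were higher and 0 lower in the epididymal depot, and 1 was higher and 12 lower in the inguinal one. Rgs1, which shortens G protein signals of chemokine receptors, was at 227, 290 and 158 FPKM in epididymal high-fat and 3.00, 4.28 and 5.28 in normal-diet libraries (log2 difference 5.57, limma adjusted p = 2.1e-06). In inguinal libraries Rgs1 was at 76.1, 55.8 and 37.5 FPKM on the high-fat diet and 7.26, 10.7 and 14.01 on chow (2.34, limma adjusted p = 0.00088). Another regulator gene, Rgs2, also rose in the epididymal depot (2.49). The leukocyte genes Rac2 (−3.43), Plcb2 (−2.79) and Vav1 (−2.67) fell in the inguinal one.

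Of 25 tested genes that induce chemokines, 9 were higher and 3 lower in the epididymal depot. In the inguinal one 3 were higher and 8 lower. Beside this list and the next, 12.2 percent of all genes were higher and 7.35 percent lower in the epididymal depot. The inguinal shares were 9.3 and 10.2 percent. Tnf, the cytokine that induces many of these ligands, was at 19.7, 13.9 and 6.68 FPKM in epididymal high-fat and 0.181, 0.278 and 0.183 in normal-diet libraries (4.16, limma adjusted p = 4.9e-05). In inguinal libraries Tnf did not pass (1.05, limma adjusted p = 0.10). The NF-kappa-B feedback gene Tnfaip3 (2.28) and the early gene Fos (2.21) rose in the epididymal depot, and Fos rose in the inguinal one (1.82). In the inguinal depot Irf7 (−1.84), Il4ra (−1.72) and Nfkbie (−1.70) fell. Of 17 further chemoattractant genes tested, 6 were higher and 3 lower in the epididymal depot, and 1 was higher and 4 lower in the inguinal one. Ccrl2, a non-signalling receptor related to the chemokine receptors, was higher in both (3.01 and 1.27, limma adjusted p = 9.4e-05 and 0.021). C3ar1 (2.62) and C5ar1 (2.49), the receptors of complement peptides, rose in the epididymal depot. S1pr1 (−2.89), the lymphocyte and endothelial receptor of sphingosine 1-phosphate, fell there, as did the endothelial receptor gene Gpr182 (−2.33).

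The 18 members that did not reach the level for a test were listed at 0 in all 14 libraries (Ccl19-ps1, Ccl19-ps3, Ccl21b, Ccl26, Ccl27b and Cxcr1) or did not exceed 4.10 FPKM. The highest of these values was that of Ccr9, a gut homing receptor, in inguinal normal-diet replicate 2. Of the other members tested and not called in any comparison, Ccl25 was at 0.560 to 4.21 FPKM, Ccl27a at 1.19 to 5.58 FPKM, Ccl12 at 0 to 6.01 FPKM and Ccl17 at 0 to 9.83 FPKM. Cx3cl1, Cx3cr1, Ccr10 and Xcl1 stayed at or below 2.49, 0.650, 1.82 and 1.91 FPKM.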

How the data were processed

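Poly(A) RNA of adipocytes from 3 fat depots was sequenced in 14 libraries. Per the submitters' processing notes, reads were aligned with TopHat2 2.0.9 to mm10 and gene values made with Cuffdiff 2.1.1; the annotation, strand setting and scaling are not given in the sources used here. Deposited values are FPKM per Ensembl gene. Whole-read steps were not found among low values, so depth and counting error are unknown and precision rests on the replicates. A value of 0 may be a failed Cuffdiff estimate. Genes with such values are called listed at 0, and a group at 0 gets no fold.

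Symbols were matched to 36638 of 38553 identifiers and left unmatched for 1915. All 63 members matched RefSeq on GRCm38.p6, the source of coordinates and promoters. The white libraries were tested with limma 3.58.1 (R 4.3.3; lmFit, then eBayes with a trend) using log2(FPKM + 0.5) of the 14959 genes with at least 0.5 FPKM in at least 3 of 12 libraries. It fitted 4 group means (8 residual degrees of freedom) and 5 contrasts: diet in each depot, their difference, and depot on each diet. Calls are two-sided, at a p under 0.05 after Benjamini-Hochberg adjustment over all genes. The script was tested on simulated data. Brown libraries entered no test and were compared by a 2-fold rule on FPKM + 0.5.

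The members, gene lists and marker lists were chosen with earlier results of these data known. Values per library are given for members called in a diet contrast or the interaction, the 8 with the highest mean, and partners of these in a fixed table of ligand and receptor pairs; from other lists at most 3 genes each way were named. Some genes that these rules take are not reported here. Alternatives were pseudocounts of 0.1 and 1, a minimum of 2 FPKM or none, quantile or TMM scaling, array weights, only the 2 groups compared, a 2-fold minimum, a replicate block, each library left out in turn, and inguinal normal-diet replicates 0 and 2 left out.

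The replicate numbers recur in each white group, with no label for their meaning. Across genes, libraries of the same number in the 2 high-fat groups had correlated deviations from their means (0.184, 0.111 and 0.146). The 2 epididymal groups had close values (0.18, 0.082 and 0.162). In every comparison but that of the high-fat groups at least 1 pair was below 0.1. Libraries of different numbers were not compared, so the numbers may pair libraries, but this was not settled.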

Additional observations from a re-analysis of the deposited data

Results flagged for a closer look

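For 7 members the diet effects of the white depots differed by the interaction test (epididymal minus inguinal difference, limma, Benjamini-Hochberg adjusted over all genes). Among them the values were 3.21 for Ccr6, 3.16 for Ccl5, 3.07 for Ccl4, 3.04 for Cxcr4, 1.95 for Ccr1 and −1.42 for Cxcl9, with adjusted p of 0.013 (Cxcl9) to 0.046 (Ccl4). In Ccr1 all 3 epididymal high-fat libraries lay above, and all 3 inguinal high-fat libraries below, the normal-diet libraries of their depot. In Cxcl9 all 3 epididymal high-fat libraries lay below the normal-diet ones, and the inguinal groups overlapped. Ccr6 reached the level for a test only through the 3 inguinal normal-diet libraries.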

How the results depend on the processing

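Depth is unknown, so no counting error can be given, and genes near 0 FPKM depend on the pseudocount. With the replicate number as a block, 19 members were called for diet in the epididymal and 17 in the inguinal depot. It gave 9 interactions, and 8 and 14 calls between depots on the normal and the high-fat diet. Of all genes 22.8, 23.1, 7.7, 7.25 and 11.9 percent were called, in the same order. In no comparison do the labels say what a shared number means. The block added Ackr1 and Ackr2 (epididymal diet) and, among others, Ccl3 and Ccr1 (inguinal diet). It lost Cxcl10 between depots on the normal diet (limma adjusted p = 0.055).

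Leaving out 1 library gave 8 to 14 epididymal diet calls, 8 to 14 inguinal diet calls and 2 to 13 interactions. Depot calls numbered 3 to 14 on the normal and 4 to 8 on the high-fat diet. Shares of all genes called in these fits were 12 to 15.7 percent and 11.2 to 31.5 percent for diet. They were 2.9 to 17.3 percent for the interaction, and 1.69 to 20.3 and 5.17 to 7.25 percent between depots. Inguinal diet calls numbered 6 with only the 2 groups compared, beside 4.77 percent of all genes. Interactions numbered 4 without a filter, 4 with TMM scaling and 17 with array weights, beside 3.08, 7.83 and 19 percent of all genes. Depot calls on the normal diet numbered 14 with array weights, 0 with only the 2 groups compared and 5 without inguinal normal-diet replicates 0 and 2. Depot calls on the high-fat diet numbered 6 without a filter, beside 5.97 percent of all genes. They numbered 18 with array weights and 17 with only the 2 groups compared, beside 24.6 and 20 percent. Fits without libraries hold fewer samples; for the rest the cause was not tested. Quantile scaling moved the median interaction of all genes from 0.07 to −0.09.

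Of single members, 27 values changed sign, each in a diet comparison in which that member was not called. Some of these members were called in the other depot. The search covered all calls, and the uncalled diet differences of members that the rules for per-library values take. Over the fits without 1 library, epididymal diet differences ranged from −0.09 to 0.73 for Ccl22 and from −0.5 to 0.12 for Ccr2. Inguinal ranges were −0.84 to 0.34 (Ccl24), −0.40 to 1.06 (Ccl6), −0.01 to 1.57 (Ccl9), −0.33 to 0.63 (Ccl11), −0.31 to 0.30 (Cxcr2), −0.57 to 1.54 (Ccl7), −0.28 to 1.07 (Ccl2), −0.78 to 0.11 (Ackr3) and −0.49 to 0.10 (Ackr4). Without inguinal normal-diet replicates 0 and 2 the differences were −1.72 (Ccl6), −0.74 (Ccl9), −1.03 (Ccl11), −0.37 (Cxcr2), 0.12 (Cxcl9), −1.84 (Ccl7), −1.53 (Ccl2) and 0.36 (Ccl21a). With array weights Ccl24 was at 0.03. The cause was not tested.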
